A study of Sus scrofa with 6 samples.

Results

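The genes described here are the Toll-like receptors and endotoxin co-receptors of the pig lung, 10 genes of the 11765 genes that the arrays could be tied to. They were chosen by name: TLR1, TLR2, TLR3, TLR4, TLR7, TLR8, TLR9, CD14, LY96 and MYD88. Each gene was represented by its main-category probe set of highest mean signal, and 10 of 10 were measured. Lung biopsies came from 6 adult male German landrace pigs, which had all undergone extended partial hepatectomy (ePHx), the surgical removal of a large part of the liver. The 3 control animals received Ringer solution as the vehicle. The 3 MSC-treated animals received a central venous transfusion of porcine mesenchymal stem cells from bone marrow (pBM-MSC) that had been differentiated towards hepatocytes in culture. Tissue was taken at the end of the intensive care period that followed surgery. Animals without resection were not analysed here, so each value is from a lung after ePHx, and no value states what the resection itself did. Each animal gave 1 Affymetrix porcine gene array, on which a probe set of 19 to 29 short probes reads the transcript of a member.

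Toll-like receptors are membrane proteins of innate immune and lining cells that bind conserved microbial molecules and, in some settings, molecules released from damaged host cells. TLR1, TLR2 and TLR4 act at the cell surface on bacterial lipopeptides and lipopolysaccharide (endotoxin), whereas TLR3, TLR7, TLR8 and TLR9 act in endosomes on nucleic acids. CD14 hands endotoxin to the complex of TLR4 and LY96 (also called MD-2), and MYD88 is the adaptor through which these receptors other than TLR3 drive NF-kB and the transcription of cytokine genes. In the lung, alveolar macrophages are a well known site of this system. These roles were worked out mainly in human and mouse.

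The deposited log2 signals of any 2 arrays correlated across genes at 0.963 to 0.989. The letters b-T stand in the names of 3 arrays and are called the mark here. No label explains them. Matching the values placed the mark on control replicate 1, control replicate 3 and MSC-treated replicate 2, so it was on 2 of 3 control arrays and on 1 of 3 MSC-treated arrays. Lung identity was plain, since the 11 measured epithelial markers, among them the surfactant protein genes, had a mean log2 signal of 9.43 to 9.92 on each array. The name of the array of MSC-treated replicate 1 lacks the word for lung that the other names carry, and its signal of the surfactant gene SFTPC was 12.53, beside 12.27 to 12.54 on the others. Control replicate 1 stood apart by its blood cell markers: the 8 measured neutrophil markers had a mean log2 signal of 8.83 there and of 6.44 to 7.40 on the other arrays. The 6 measured erythroid markers had a mean of 6.80 there and of 5.06 to 5.65 elsewhere. Without this array the members' counts and median given below were 0 of 10 and -0.07. Against the 23 background probe sets, which match no pig sequence, 10 of 10 members were above the mean background of every array (3.88 to 4.24). TLR4 and MYD88 were also above the 95th percentile of the background on all 6 arrays (7.46 to 8.06). LY96 passed it on 5 arrays, TLR3 on 3, TLR7 on 2 and CD14 on 1, while TLR1, TLR2, TLR8 and TLR9 passed it on none. The median of all genes, 6.18 to 6.27, was also under this percentile on every array, so failing it is not particular to these members. The signal of a probe set depends on its probes, so levels are compared between arrays and not between genes.

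The first question was whether the lungs of MSC-treated animals held less or more of these transcripts than the lungs of control animals. None of the differences exceeded the spread between animals. In limma over all genes, 0 of 10 members passed the thresholds of the study, namely p under 0.05 without adjustment together with a log2 fold change of 0.5 or more in either direction, which 1.86% of all genes passed (0.654% higher and 1.21% lower). At an unadjusted p under 0.05 alone the count was 0 of 10 beside 2.75% of all genes, a trended and robust variance model also gave 0 of 10 at the study's thresholds, and each member had an adjusted p of 1. The ranges of the groups overlapped for 10 of 10 members, while 7.44% of all genes had groups that did not overlap. All 10 log2 fold changes were negative, from -0.38 to -0.02, with a median of -0.14, beside 50.5% negative and a median of -0.0028 over all genes. With the mark as a covariate 6 of the 10 were positive. With 3 arrays against 3 the two-sided exact permutation test over the 20 splits cannot go below p = 0.1 and the small number of arrays limits precision throughout. In whole tissue, fewer cells of a type and less RNA per cell cannot be told apart.

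**Figure D1:**
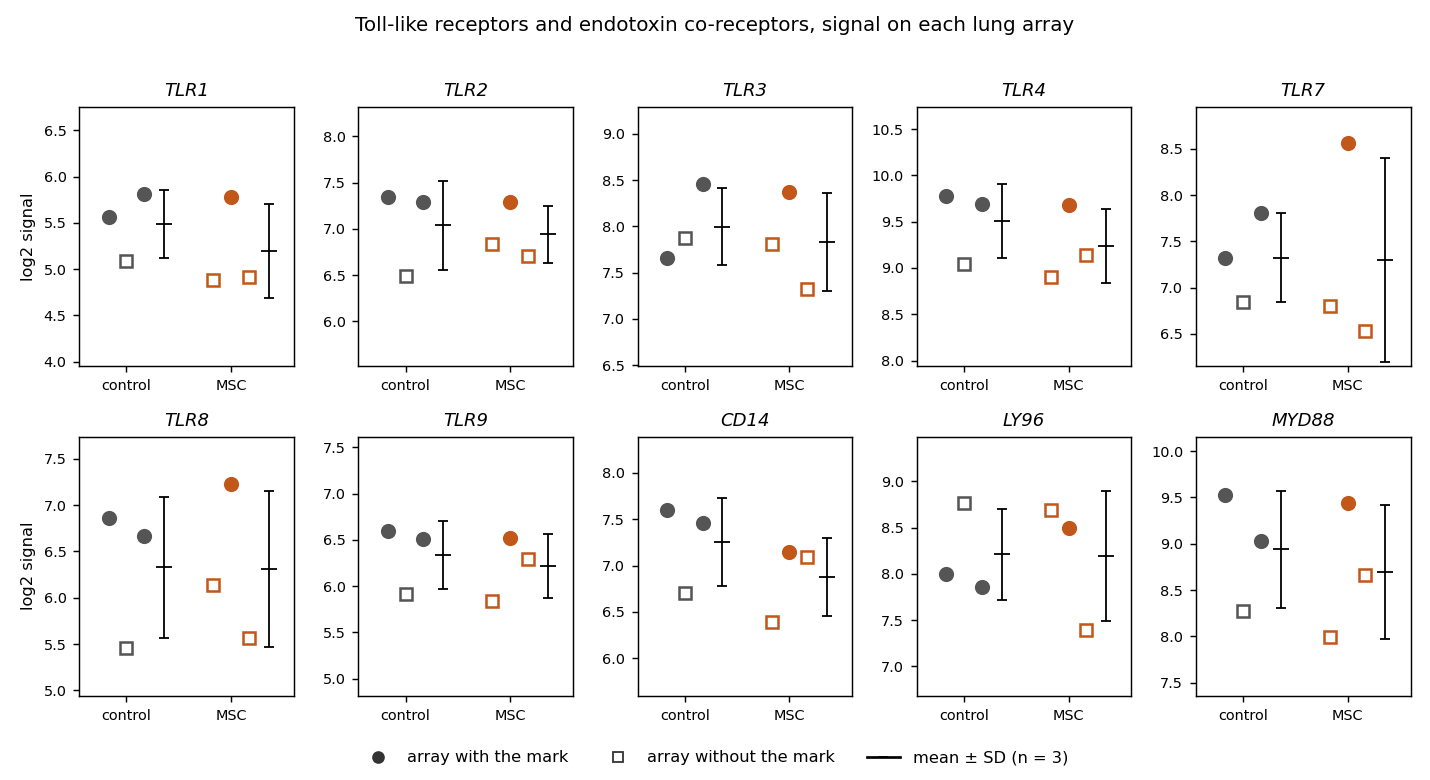
Log2 signal of each of the 10 members (vertical axis, each panel spanning the same number of log2 units) on the 3 control and 3 MSC-treated lung arrays, with filled circles for arrays that carry the mark, open squares for those that do not, and black bars for mean ± SD. Control and MSC-treated arrays overlap in each panel, whereas the filled circles lie above the open squares in 8 of the 10, the exceptions being TLR3 and LY96.

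TLR4, the signalling receptor for endotoxin, lies on chromosome 1 by the array annotation. Its log2 signal was 9.78, 9.05 and 9.69 in control replicates 1, 2 and 3, and 8.90, 9.68 and 9.14 in MSC-treated replicates 1, 2 and 3. The high arrays were those with the mark in either group, and the groups overlapped. Control lungs had a mean of 9.51 ± 0.40 and MSC-treated lungs of 9.24 ± 0.40 (SD, n = 3 each), a difference of -0.27 (SE 0.27, 95% confidence interval -0.90 to 0.37, exact permutation p = 0.4). It was -0.06 among the marked arrays and -0.03 among the others. The first value rests on MSC-treated replicate 2 alone in its group and the second on control replicate 2 alone. That limits what they can show. TLR4 was the only member with a negative difference under every setting tried for single members.

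TLR2, which senses bacterial lipopeptides together with TLR1 or TLR6, is annotated at chr8:79824541-79834592 on the minus strand (Sscrofa10.2). It read 7.34, 6.49 and 7.29 in the controls and 6.83, 7.29 and 6.71 in the MSC-treated animals. Control replicate 2 was the lowest array and the marked arrays were the highest. The difference was -0.10 (SE 0.27, 95% confidence interval -0.74 to 0.54, exact permutation p = 0.8), with -0.03 among the marked arrays and 0.28 within the others. The array annotation puts this probe set on the plus strand, opposite to the gene, and a second TLR2 probe set on the minus strand of the gene. The second set differed by -0.08 between treatments and separated the arrays by mark in the same way, at 4.85 to 5.004 on marked and 4.37 to 4.49 on other arrays.

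TLR1, the partner of TLR2 for triacylated lipopeptides, lies on chromosome 8 beside TLR6 and TLR10. The RefSeq table gives TLR6 as a synonym of TLR1, and which of these similar receptors its probes read was not settled from sequences. The array annotation gives the TLR1 probe set cross-hybridisation type 1 (unique), whereas the TLR6 and TLR10 sets are of type 3, which is not unique. Its signal was 5.56, 5.09 and 5.82 in the controls and 4.89, 5.78 and 4.92 in the MSC-treated animals. The 2 lowest arrays were MSC-treated replicates 1 and 3, and MSC-treated replicate 2 lay between the marked controls. TLR1 differed by -0.29 (SE 0.30, 95% confidence interval -0.98 to 0.39, exact permutation p = 0.5), by 0.09 within the marked and by -0.19 within the other arrays.

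CD14, which delivers endotoxin to TLR4, had the largest difference of the 10. It lies on chromosome 2. The signal was 7.60, 6.71 and 7.46 in the controls and 6.39, 7.15 and 7.09 in the MSC-treated animals. Control replicate 2 lay below 2 of the MSC-treated arrays, which made the groups overlap. The means were 7.26 ± 0.48 (SD, n = 3) and 6.88 ± 0.42 (SD, n = 3), a difference of -0.38 (SE 0.30, 95% confidence interval -1.08 to 0.32, limma p = 0.243 unadjusted, exact permutation p = 0.4). Whether CD14 passed depended on control replicate 2. Without that array CD14 was past the study's thresholds at -0.65, and with the mark as a covariate the difference was -0.17. Within the marked arrays it was -0.38 and within the others 0.03.

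LY96, the MD-2 protein that holds endotoxin on TLR4, lies on chromosome 4 and did not vary with its partners. Its signal was 8.002, 8.77 and 7.86 in the controls and 8.69, 8.49 and 7.39 in the MSC-treated animals. The highest array was control replicate 2, which was the lowest array for TLR2 and TLR8. The difference between treatments was -0.02 (SE 0.38, 95% confidence interval -0.90 to 0.87, exact permutation p = 1). The value was 0.56 among the marked arrays and -0.73 among the others, of opposite sign.

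MYD88, the adaptor shared by these receptors other than TLR3, is annotated at chr13:25181051-25185351 on the plus strand (Sscrofa10.2). It gave 9.52, 8.27 and 9.03 in the controls and 7.99, 9.44 and 8.66 in the MSC-treated animals. Each group spanned more than a log2 unit, 1.25 in the controls and 1.45 in the MSC-treated animals. The difference of -0.24 (SE 0.42, 95% confidence interval -1.22 to 0.74, exact permutation p = 0.7) was small beside that spread, and within the marked and the other arrays it was 0.16 and 0.06.

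Among the endosomal receptors, TLR7 and TLR8 sense RNA and are neighbours on the X chromosome. The annotation places TLR7 at chrX:10451005-10476655 and TLR8 at chrX:10500862-10512938, both on the plus strand (Sscrofa10.2). TLR7 read 7.32, 6.85 and 7.81 in the controls and 6.80, 8.57 and 6.54 in the MSC-treated animals. Both the highest and the lowest array were MSC-treated, and TLR7 had the widest range of the 10 members, 2.03 log2 units. Its means of 7.32 ± 0.48 and 7.30 ± 1.10 (SD, n = 3 each) differed by -0.02 (SE 0.52, 95% confidence interval -1.23 to 1.18, exact permutation p = 0.9). The comparison within the marked arrays, MSC-treated replicate 2 against control replicates 1 and 3, gave 1.00, and that within the others -0.18.

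TLR8 followed a like course over the arrays, at 6.86, 5.45 and 6.67 in the controls and 6.13, 7.23 and 5.56 in the MSC-treated animals. MSC-treated replicate 2 was again the highest array, and control replicate 2 was the lowest. The pooled difference was -0.02 (SE 0.49, 95% confidence interval -1.17 to 1.13, exact permutation p = 1). In contrast, TLR8 was higher in MSC-treated lungs within both sets, by 0.46 in the marked and by 0.40 in the other arrays. With the mark as a covariate the difference was 0.43 (SE 0.20, 95% confidence interval -0.04 to 0.90, adjusted p = 0.988 in limma). That was the clearest difference of the 10 members in that fit, and it was short of the thresholds.

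TLR3, the receptor for viral RNA duplexes that signals without MYD88, lies on chromosome 15. It read 7.65, 7.88 and 8.45 in the controls and 7.81, 8.38 and 7.32 in the MSC-treated animals. Its high arrays were control replicate 3 and MSC-treated replicate 2, while the marked control replicate 1 was among the low ones. The difference was -0.16 (SE 0.31, 95% confidence interval -0.88 to 0.56, exact permutation p = 0.7).

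TLR9, the receptor for unmethylated CpG DNA, lies on chromosome 13 and had the narrowest range, 0.75 log2 units. The signal was 6.59, 5.92 and 6.51 in the controls and 5.84, 6.52 and 6.30 in the MSC-treated animals. The difference was -0.12 (SE 0.25, 95% confidence interval -0.70 to 0.47, exact permutation p = 0.6). A second TLR9 probe set of 10 probes, annotated to the gene at chr13:37647229-37652020 on the plus strand (Sscrofa10.2), did not vary alike. The array annotation puts that set on the minus strand, opposite to the gene. It read 5.37, 5.32 and 5.23 in the controls and 5.25, 5.08 and 5.28 in the MSC-treated animals, with the marked MSC-treated replicate 2 lowest. Its difference between treatments, -0.10, was near that of the first set. Its mean difference between marked and other arrays was -0.06, beside 0.52 for the first set. The separation of TLR9 by mark thus depends on the probe set.

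**Figure D2:**
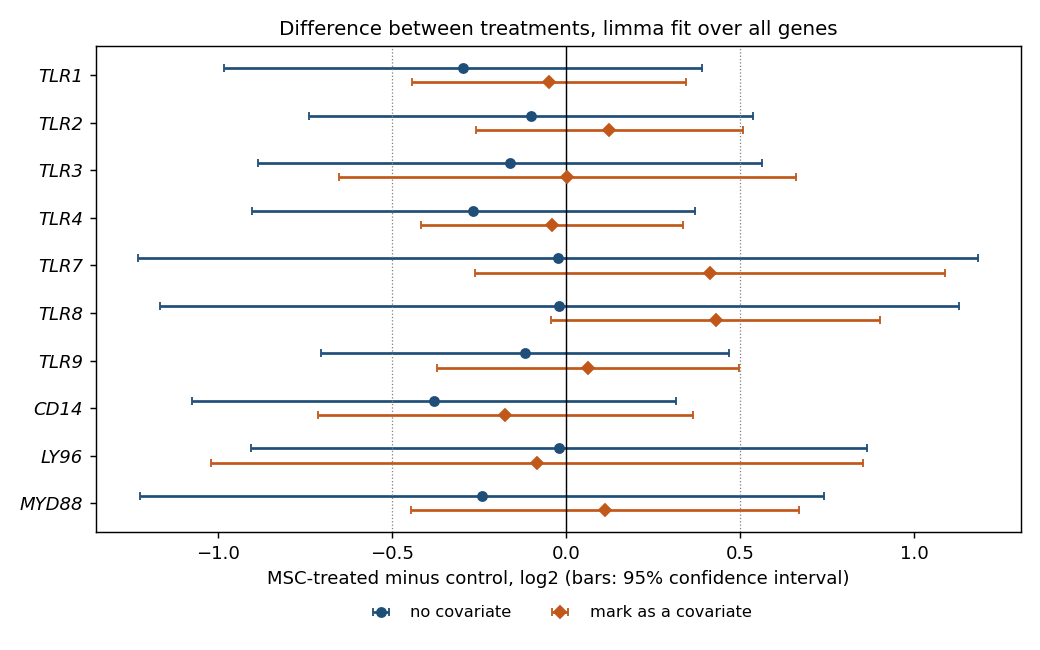
Difference in log2 signal between MSC-treated and control lungs (horizontal axis) for each member, with 95% confidence intervals from limma without a covariate (circles) and with the mark as a covariate (diamonds), and dotted lines at a log2 difference of 0.5 in either direction. Each interval holds 0, and the 10 negative values of the first fit become 6 positive and 4 negative ones in the second.

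The mark was distributed unequally over the groups. When it entered the fit as a covariate, 0 of 10 members passed the thresholds beside 2.88% of all genes (1.66% higher and 1.22% lower). At an unadjusted p under 0.05 the count was also 0 of 10, beside 4.15% of all genes. Of the 10 differences 6 were then positive, compared with 48.2% over all genes, and their median was 0.03. Within the marked arrays 6 members were higher in the MSC-treated lung, and within the others 5 were. The shared negative sign of the fit without the covariate was thus not found within the sets.

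Arrays with and without the mark were then compared, with the treatment as a covariate, a comparison chosen after the values had been seen. Of the 10 members, 8 were higher on the marked arrays past the same thresholds, which 13.8% of all genes passed, 8.55% in this direction and 5.24% in the other. The same 8 had an unadjusted p under 0.05, beside 16.9% of all genes. For these 8 every marked array lay above every other array (12.2% of all genes), and an exact permutation test gave p = 0.1 for each, the smallest it can give. The members had a median difference of 0.67, beside -0.0074 for all genes. Largest were TLR8 at 1.35 (SE 0.20), TLR7 at 1.31 (SE 0.29) and MYD88 at 1.06 (SE 0.24). TLR1 differed by 0.74 (SE 0.17), TLR4 by 0.68 (SE 0.16), TLR2 by 0.67 (SE 0.16), CD14 by 0.62 (SE 0.23) and TLR9 by 0.54 (SE 0.19). For CD14 the gap between the lowest marked and the highest other array was no more than 0.06. The second TLR9 probe set did not separate the arrays by mark, at 5.08 to 5.37 on marked and 5.25 to 5.32 on other arrays. TLR8 alone reached an adjusted limma p under 0.05, namely an adjusted p = 0.0393, a level that 0.969% of all genes reached. The exceptions were TLR3, at 0.49 (SE 0.28, adjusted p = 0.437 in limma), and LY96, at -0.19 (SE 0.40, adjusted p = 0.870 in limma).

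The separation by mark depended on single arrays in its count. Its direction could not turn for these 8, since every marked array lay above every other array. Leaving out each array in turn, 5 to 9 members passed the thresholds, beside 7.76% to 21% of all genes. The count was 5 without control replicate 2 and 9 without MSC-treated replicate 3, and without the latter 8 members reached an adjusted limma p under 0.05, as did 11.6% of all genes, against 0 members without any other array. With the treatment in the fit, leaving out control replicate 2 leaves the comparison by mark to the MSC-treated arrays alone, and leaving out MSC-treated replicate 2 leaves it to the controls alone. TLR1, TLR4, TLR8 and MYD88 passed in each of the 6 fits. TLR2 missed the thresholds without control replicate 2, TLR7 without MSC-treated replicate 2 (0.72), and TLR9 and CD14 in 4 of the 6. TLR3 passed without control replicate 1 (0.71), and LY96, lower on the marked arrays, passed without MSC-treated replicate 3 (-0.56). Without control replicate 2, the value of LY96 turned to 0.45, and without MSC-treated replicate 2 it was -0.84.

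Markers of macrophages moved in the same direction as the 8 receptor genes. Of 9 measured macrophage markers, 7 were higher on the marked arrays past the thresholds and 0 lower. Their mean log2 signal was 10.23 to 10.40 on marked and 9.12 to 9.62 on other arrays. Past the same thresholds 8.55% of all genes were higher and 5.24% lower, the shares for each marker list below. The scavenger receptor MARCO, a marker of alveolar macrophages, differed by 1.41 (SE 0.25), EMR1 (F4/80) by 1.79 (SE 0.23) and the complement gene C1QC by 1.44 (SE 0.18). MRC1, the mannose receptor of macrophages, did not follow, at -0.34 (SE 0.19), and MSR1 differed by 0.48 (SE 0.28) without passing. T and NK cell markers were higher for 8 of 15, the endothelial genes VWF and TEK for 2 of 5 and neutrophil markers, among them CXCR2, for 2 of 8. Monocyte and dendritic cell markers had 2 of 7 higher (XCR1 and CD83) and plasmacytoid dendritic cell markers 2 of 5 (TCF4 and BLNK). The fibroblast collagens COL1A2 and COL3A1 were lower, 2 of 5, while 0 of 11 epithelial, 0 of 6 erythroid and 0 of 4 B cell markers passed in either direction. The mean of the background probe sets was lower on the marked arrays (3.88 to 4.03) than on the others (4.14 to 4.24). The part of cell composition, of array background and of what the letters stand for in the receptor signals was not tested.

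Between treatments the same macrophage markers gave no call, 0 of 9, with a median of -0.17 and groups whose means overlapped, 9.12 to 10.31 in control and 9.40 to 10.40 in MSC-treated lungs. Neutrophil markers had 3 of 8 lower in the MSC-treated animals (S100A12, VNN2 and TCN1) and erythroid markers 2 of 6 (among them HBB). The T and NK list had 2 of 15 higher, the NK receptors KLRD1 and KLRK1. The other marker lists had no call between treatments. Of all genes 0.654% were higher and 1.21% lower. With the mark as a covariate 2 of 9 macrophage markers were higher past the thresholds, MARCO at 0.67 and SIGLEC-1 at 0.78, and the median of that list was 0.29. In that fit 6 of 15 T and NK markers were higher, and 3 of 8 neutrophil and 1 of 6 erythroid markers were lower. Of 7 monocyte and dendritic cell markers LYZ was lower, at -0.9996. Of all genes 1.66% were higher and 1.22% lower in that fit. The part of these cells in the small negative values of the 10 members was not tested.

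The rest of the pathway was examined by lists that follow its order from receptor to response. No gene of 12 other receptors and accessory proteins, 19 adaptors and kinases, 10 transcription factors or 14 negative regulators passed the thresholds between MSC-treated and control lungs. Their median differences were -0.05, 0.05, 0.14 and -0.02. In the first list TLR10 differed by -0.24 (SE 0.19) and CD36, a scavenger receptor that works with TLR2, by -0.39 (SE 0.35). TLR6 differed by -0.01, its signal ranging from 6.28 to 7.01 over the arrays. The TLR6 and TLR10 sets are of cross-hybridisation type 3 and repeat the same values on both strands. That limits what they say of a single receptor. RIPK1 and IRAK4, kinases of the cascade, differed by 0.20 (SE 0.25) and -0.17 (SE 0.23). TRAF6, the ubiquitin ligase below the receptors, was nearly constant, at 7.34 to 7.45 in control and 7.46 to 7.55 in MSC-treated lungs, a difference of 0.10 (SE 0.14).

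Among the transcription factors, REL and IRF1 came nearest to a call. REL, an NF-kB subunit, read 8.33, 7.96 and 8.27 in the controls and 8.50, 8.77 and 8.51 in the MSC-treated animals, so each MSC-treated array lay above each control array, as for 3.6% of all genes. Its difference of 0.41 (SE 0.17, exact permutation p = 0.1, the smallest possible) was short of the threshold on size. With the mark as a covariate REL (0.51) and IRF1 (0.60), which switches on interferon and inflammatory genes, passed the thresholds at an adjusted p that was not under 0.05. In that fit the adaptor PIK3AP1 also passed, at 0.59.

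Of the 6 pathway lists, the cytokine and response genes that these receptors can induce had the most calls between treatments. They were also the list with the most measured genes. Of 27 measured genes 4 were lower and 0 higher in the MSC-treated lungs, beside 1.21% of all genes lower and 0.654% higher. For these 4 each MSC-treated array lay below each control array, which 3.83% of all genes showed. IL6, the acute phase cytokine, read 5.72, 5.32 and 5.07 in the controls and 4.16, 4.86 and 4.75 in the MSC-treated animals, a difference of -0.78 (SE 0.25). On MSC-treated replicate 1 it lay under the mean of the background probe sets of that array (4.23), and on all 6 arrays under their 95th percentile, so the size of its difference is uncertain. IL8, the neutrophil chemokine, read 7.33, 7.26 and 6.69 against 5.45, 6.64 and 6.58, a difference of -0.87 (SE 0.34), also under that percentile on all 6 arrays. MSC-treated replicate 1 was the lowest array for both. VCAM1, the endothelial adhesion molecule for leukocytes, was at 8.58, 8.77 and 8.34 against 8.04, 8.10 and 7.87, which made -0.56 (SE 0.17). SOD2, the mitochondrial superoxide dismutase, was at 10.50, 10.35 and 10.09 against 10.07, 9.80 and 9.51, which made -0.52 (SE 0.20). The adjusted limma p was 1 for each of these 4. Their exact permutation p of 0.1 was the smallest possible.

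Arrays with and without the mark overlapped for each of these 4 genes, with differences between marked and other arrays of 0.24 for IL6, 0.19 for IL8, -0.08 for VCAM1 and -0.02 for SOD2. With the mark as a covariate IL6 (-0.70), VCAM1 (-0.59) and SOD2 (-0.52) stayed past the thresholds, IL8 (-0.80) did not, and PTX3, a soluble pattern recognition protein, passed at -0.72. In that fit TNF (0.73) and CCL5 (0.78) passed in the other direction, so that 2 of 27 were higher and 4 lower. Of all genes 1.66% were higher and 1.22% lower in that fit. The sign was not shared by the induced genes. Other cytokines of the list, such as IL1B (-0.38 without the covariate, control replicate 1 at 5.75 and the other arrays at 4.28 to 4.68) and IL10 (-0.08), did not pass. CXCL10 had the largest difference of the list in size, 1.02 without the covariate, and did not pass either. In that fit 10 of the 27 differences were positive and 17 negative.

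Of 13 other innate sensors, CLEC7A (Dectin-1), the receptor of myeloid cells for fungal glucans, passed the thresholds between treatments. It was lower in the MSC-treated lungs, beside 1.21% of all genes lower and 0.654% higher. It read 7.81, 7.51 and 7.80 in the controls and 6.68, 7.50 and 6.69 in the MSC-treated animals. MSC-treated replicate 2 and control replicate 2 were close to each other, and the other MSC-treated arrays were lower. The difference was -0.75 (SE 0.25, adjusted p = 1 in limma). It was -0.30 among marked and -0.82 among other arrays, and a fit with the mark gave -0.56. The signal of CLEC7A lay under the 95th percentile of the background probe sets on every MSC-treated array and on control replicate 2. The size of its difference is thus uncertain. With the covariate NLRP3 (0.67) and ZBP1 (0.61) were higher past the thresholds, and CLEC7A stayed lower past them. Of all genes 1.66% were higher and 1.22% lower in that fit. NLRP3 and ZBP1 lay under the 95th percentile of the background on all 6 arrays, so the sizes of their differences are uncertain too.

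**Figure D3:**
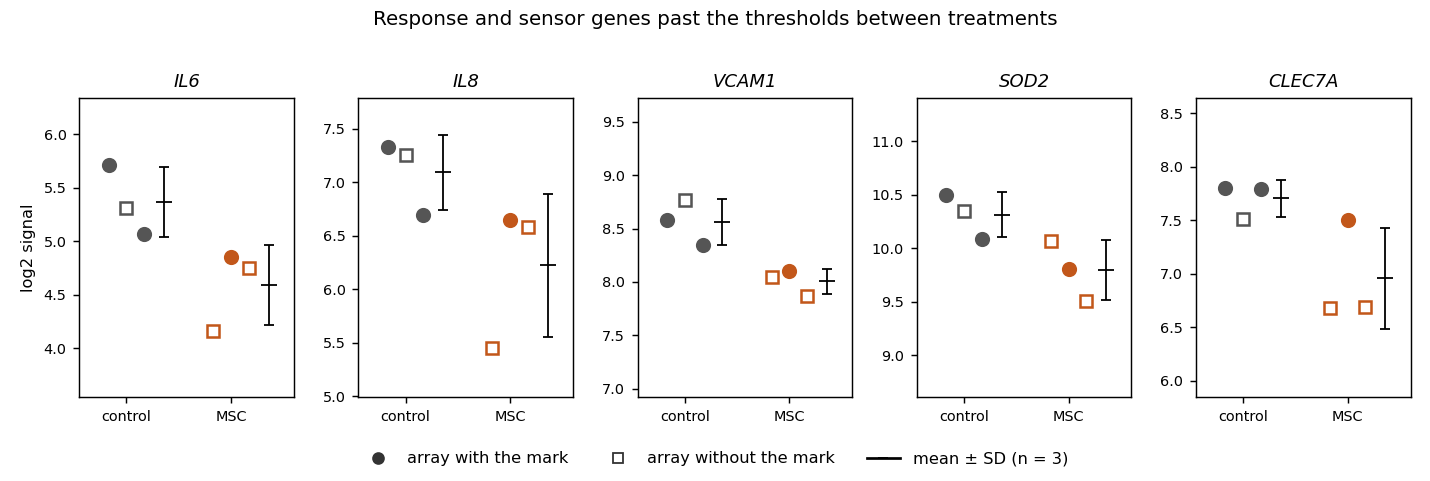
Log2 signal (vertical axis) of IL6, IL8, VCAM1, SOD2 and CLEC7A, the pathway genes past the thresholds between treatments, on each control and MSC-treated lung array, with filled circles for marked arrays, open squares for the others and bars for mean ± SD. In each panel the 3 MSC-treated arrays lie below the 3 control arrays, and for CLEC7A the nearest arrays differ by little (7.50 and 7.51).

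**Figure D4:**
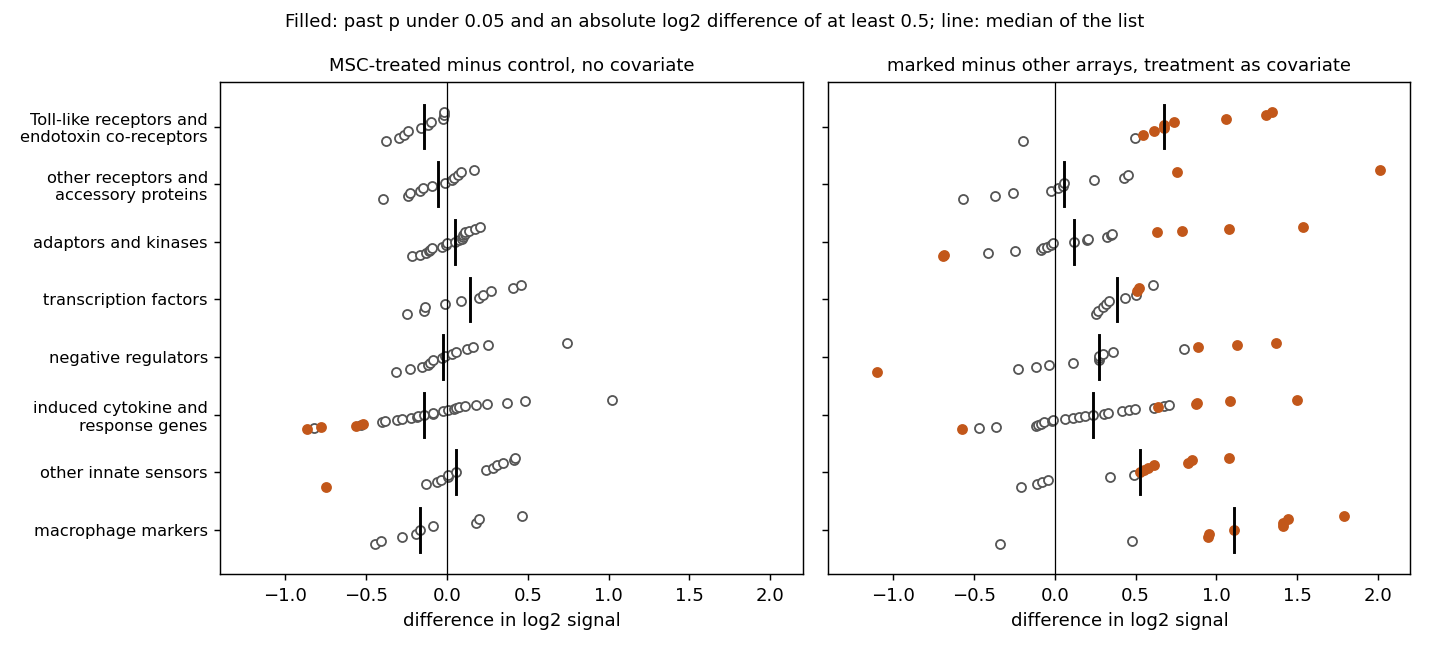
Differences in log2 signal of single genes (points) in the members, 6 pathway lists and the macrophage markers, between treatments in the left panel and between marked and other arrays in the right panel, with filled points for genes past the thresholds and black lines for list medians. The members lie between -0.38 and -0.02 on the left with none filled, and 8 of 10 are filled on the right, where the median is 0.67 for the members and 1.11 for the macrophage markers.

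By the mark, the other lists were mixed, beside 8.55% of all genes higher and 5.24% lower past the thresholds. The small counts of these short lists were not tested against those shares. Of the other receptors 2 of 12 were higher on marked arrays: CD180, a surface protein related to TLR4, at 2.01 (SE 0.16, adjusted p = 0.0246 in limma), and the integrin ITGAM at 0.76. TLR6 (0.43) and TLR10 (0.05), the remaining Toll-like receptors measured, did not pass, with the limit on their probe sets given above. Adaptors and kinases had 4 of 19 higher, with PIK3AP1 at 1.54, BTK at 1.08, TICAM2 at 0.79 and TAB2 at 0.63, and 2 lower, UBE2N and MAPK8, each at -0.69. The transcription factors had 2 of 10 higher, RELA at 0.51 and CEBPB at 0.52. Negative regulators had 3 of 14 higher, the phosphatase gene INPP5D at 1.37, NFKBIA at 1.13 and TNFAIP3 at 0.88, and 1 lower, IL1RL1 at -1.10. Induced genes had 5 of 27 higher, IL10 at 1.496, TNF at 1.08, CCL5 at 0.88, CCL3L1 at 0.87 and ICAM-1 at 0.64, and PTX3 lower at -0.57. Of the other sensors 7 of 13 were higher and 0 lower, among them NLRP3 at 1.08, SYK at 0.85 and CASP1 at 0.83. The genes named by the mark were chosen after their values had been seen.

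Genes whose signals followed those of the members most closely over the 6 arrays were found by the root mean square difference of centred log2 signals, for the members that spanned at least 1 log2 unit. Nearest to TLR7 were CYCLT1 (0.15), PDCD1LG2 (0.17), a ligand of the T cell receptor PD-1, and CD3D (0.20), a subunit of the T cell receptor complex. TLR8 was followed by TMEM26 (0.14), RIPOR2 (0.15) and EPB41 (0.17). For MYD88 they were ARRB2 (0.09), an arrestin, PIM1 (0.12), a kinase, and the lysosomal phosphatase ACP2 (0.13). CD14 had PLD2 (0.07), NST (0.07) and LPCAT1 (0.07). LY96 was close to CEP55 (0.04), a protein of cell division, and LOC100511490 (0.10). TLR3 was followed by SSBP2 (0.10), ITGA8 (0.10) and LOC100736653 (0.12). With 6 arrays and 11765 genes such likeness is a description of these arrays.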

How the data were processed

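Lung RNA of 3 control and 3 MSC-treated pigs had been hybridised to Affymetrix arrays. The authors deposited log2 signals made by RMA, which corrects background, normalizes by quantiles and summarizes probes. The submitters' notes name Affymetrix Expression Console 1.4. The ComBat batch correction and the Brainarray annotation of the methods are not part of them. Quantile normalization hides a change shared by most genes. The 2 deposited tables hold the same values, which served to match the columns of 1 table to the samples.

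The arrays hold 27558 probe sets, and 8434 that are not of the main category were dropped. Of the 19124 others, 12912 could be tied to 1 gene, 212 had several genes and 6000 none. Symbols were taken from the files. Only placeholder symbols (LOC and a number) were replaced, where the RefSeq gene table held a name. Listed genes that were not found were looked up by their RefSeq synonyms. Some names are therefore older ones, such as EMR1 and ICAM-1. For each of 11765 genes the probe set of highest mean signal was used, without a filter on dim genes. Of these genes 1044 had more than 1 probe set.

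Groups were compared over all genes in R 4.3.3 with lmFit and eBayes of limma 3.58.1, with Benjamini-Hochberg adjustment. The study's thresholds were a p under 0.05, unadjusted, and a log2 fold change of 0.5 or more in size. Single genes were also compared by two-sided exact permutation tests. The array names differ in animal number, so the arrays were taken for separate animals. The fits were tested on simulated data. Alternatives were the mark as a covariate or within its sets, a replicate block, the other table, 2 further normalizations, a mean log2 signal of 5 or more, a gene's probe sets averaged, other variance models, array weights, the methods' t-test, a fold change above 2.0 and leaving out each array. Whether the numbers in the labels pair animals was not settled.

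Beside the 10 members, the text names the genes of 6 pathway lists that passed the thresholds or had up to 4 of the smallest p, and the 3 genes most like each member that spanned at least 1 log2 unit. A few genes that these choices cover are not reported here. The members, the pathway lists and the cell type marker lists (macrophage, monocyte and dendritic, plasmacytoid dendritic, neutrophil, B, T and NK, endothelial, epithelial, fibroblast and erythroid) were chosen with earlier results of these data known. Coordinates are those of Sscrofa10.2 in the annotation of the files. Figures were drawn with Python 3.11.15 and matplotlib 3.10.9.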

Additional observations from a re-analysis of the deposited data

How the results depend on the processing

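No member passed the thresholds with all arrays, and 0 of 10 passed in 20 of 23 alternative settings. Among these, the other table, which holds the same values, and the stricter fold change above 2.0 could give no other count. CD14 passed without control replicate 2, at -0.65, TLR7 with the mark as a covariate and without control replicate 2, at 1.00, a fit that leaves only MSC-treated replicate 2 against the marked controls and so equals the value within the marked arrays, its lone array assumed to vary like the others, and TLR8 with the mark as a covariate and without MSC-treated replicate 3. The count of members past the thresholds thus ran from 0 to 1 without single arrays, with or without the covariate, which was added to these fits after seeing the data. Of all genes 219 passed with all arrays. The count was 339 with the mark as a covariate, 79 by the methods' t-test (0 members) and 20 at a fold change above 2.0. It was 182 (without MSC-treated replicate 1) to 608 (without MSC-treated replicate 2) when single arrays were left out, with 469 without control replicate 2, and with the covariate as well 384, 225, 369, 371, 702 and 425 without control replicates 1, 2 and 3 and MSC-treated replicates 1, 2 and 3. With the replicate number as a block 166 genes and 0 members passed. Samples of the same number correlated in their deviations at -0.41, -0.49 and 0.06. Each such pair joins an array with the mark and an array without it. These values therefore cannot tell whether the numbers pair animals. The median over the members was -0.48 to -0.07 without single arrays and 0.03 with the covariate. Of 190 values of single members under the alternatives 38 turned positive. Some alternatives leave every member's difference as it was, so no sign could turn there. These were the replicate block, the other table and the filter on mean signal. The trended and robust variance, the methods' t-test and the fold change above 2.0 were such alternatives as well. With the mark as a covariate these were TLR2 (0.12), TLR3 (0.0031), TLR7 (0.41), TLR8 (0.43), TLR9 (0.062) and MYD88 (0.11). Median centring gave 0.00015 for TLR8, and array weights gave 0.026 for TLR7 and 0.22 for LY96. Within the marked arrays TLR1 (0.089), TLR3 (0.32), TLR7 (1.00), TLR8 (0.46), LY96 (0.56) and MYD88 (0.16) were positive, and within the others TLR2 (0.28), TLR8 (0.40), TLR9 (0.15), CD14 (0.031) and MYD88 (0.060), with LY96 at -0.73. Without single arrays the differences ran from -0.38 to 0.052 for TLR2, from -0.43 to 0.095 for TLR3, from -0.65 to 0.36 for TLR7, from -0.48 to 0.35 for TLR8, from -0.33 to 0.071 for TLR9, from -0.27 to 0.38 for LY96 and from -0.61 to 0.11 for MYD88. They stayed negative for TLR1 (-0.59 to -0.13), TLR4 (-0.50 to -0.10) and CD14 (-0.65 to -0.14). The cause of these shifts was not tested. Signals of TLR1, TLR2, TLR8 and TLR9 lay under the 95th percentile of the background probe sets on each array, which limits what their differences can show. The median of all genes lay under it as well.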
